A study of Mus musculus with 12 samples.

Results

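Genes that sebocytes use to make the lipids of sebum were followed in mouse scars. The members are 10 genes taken by symbol from the count files: *Scd1*, *Scd3*, *Mgst1*, *Awat1*, *Awat2*, *Soat1*, *Elovl3*, *Fasn*, *Far2* and *Cidea*. They are 10 of the 35976 genes listed, and all 10 were among the 18853 genes that passed the filter on low counts. Scars of male mice aged 8 to 12 weeks were profiled by bulk RNA-seq, with 3 mice in each of 4 groups and 1 library per mouse. The groups were *Tem1*WT/WT sham, *Tem1*WT/WT traction, *Tem1*lacZ/lacZ sham and *Tem1*lacZ/lacZ traction. In *Tem1*lacZ/lacZ mice, which had been crossed to C57BL/6 J for 10 generations, a lacZ reporter stands in place of *Tem1* in every cell. All mice received a 1.5-cm wound of the back skin. From day 6 the scars of the traction groups were stretched with a plastic device by 1 mm per day to 8 mm. The sham scars carried the same device but were not stretched. The design asks how stretch changes the scar and whether the loss of *Tem1*, the gene of a stromal membrane receptor, alters that response.

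Sebaceous glands sit beside hair follicles, where sebocytes fill with lipid droplets and then burst to release sebum. Mouse sebum is rich in wax esters and sterol esters. Fatty acids are built, desaturated and elongated, some are reduced to fatty alcohols, and acyltransferases then join alcohol and acid to a wax ester or cholesterol and acid to a sterol ester. Adipocytes share the first of these steps, so several of the genes are also active in subcutaneous fat.

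Library totals lay between 41536788 and 64644293 counts, and levels are given as CPM, counts scaled to the size of the library, after TMM normalization for differences in composition. *Tem1*, listed as *Cd248*, was at 92.4 to 337.2 CPM in the 6 *Tem1*WT/WT libraries and at 0.248 CPM or below in the 6 *Tem1*lacZ/lacZ libraries, as labelled. Nothing states that libraries with the same number share a litter or day, and p-values measure the spread between these mice. Because whole tissue was sequenced, fewer sebocytes and less RNA per sebocyte cannot be told apart in any value below.

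The 250 bases before the RefSeq starts (GRCm38.p6) of 4 members are shown for context. *Awat2* and *Awat1* are the members that passed a test in the results described next, and *Far2* and *Soat1* stand for the fatty alcohol and sterol ester steps. Capitals mark CCAAT or its reverse complement, and GGGCGG or its reverse complement, which are common promoter elements. *Awat2* is shown at its distal start on chrX:100442718-100442967 (minus strand). *Awat1* lies on chrX:100571997-100572246 (plus strand), *Far2* on chr6:148047166-148047415 (plus strand) and *Soat1* on chr1:156474329-156474578 (minus strand).
Awat2: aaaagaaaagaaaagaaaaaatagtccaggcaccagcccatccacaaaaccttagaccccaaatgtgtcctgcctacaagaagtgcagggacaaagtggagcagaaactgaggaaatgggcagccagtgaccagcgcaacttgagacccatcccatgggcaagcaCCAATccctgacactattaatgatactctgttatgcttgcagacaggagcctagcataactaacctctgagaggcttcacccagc
Awat1: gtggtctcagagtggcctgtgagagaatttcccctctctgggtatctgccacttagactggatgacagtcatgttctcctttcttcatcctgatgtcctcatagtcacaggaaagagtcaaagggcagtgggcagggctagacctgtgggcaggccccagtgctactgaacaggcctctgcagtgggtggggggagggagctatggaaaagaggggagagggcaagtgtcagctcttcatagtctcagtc
Far2: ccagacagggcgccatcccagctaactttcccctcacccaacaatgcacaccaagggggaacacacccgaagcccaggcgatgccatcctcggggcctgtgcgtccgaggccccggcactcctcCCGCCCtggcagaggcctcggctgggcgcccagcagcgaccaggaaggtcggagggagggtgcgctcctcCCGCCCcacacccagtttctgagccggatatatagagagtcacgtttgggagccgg
Soat1: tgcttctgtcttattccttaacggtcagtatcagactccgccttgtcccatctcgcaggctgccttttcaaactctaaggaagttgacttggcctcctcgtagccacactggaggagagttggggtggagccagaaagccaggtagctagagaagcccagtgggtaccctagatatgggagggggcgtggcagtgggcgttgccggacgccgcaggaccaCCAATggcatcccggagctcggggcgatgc

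RefSeq entries were used for 7 of the 10 members, *Scd3*, *Mgst1*, *Awat1*, *Awat2*, *Soat1*, *Fasn* and *Far2*, with 9 windows of this length in all. *Cidea* was left out of this search, and no entry was found for *Scd1* and *Elovl3*. Of the 9 windows, 4 held CCAAT on either strand, compared with 33.9% of 32851 windows over all genes, and 3 held GGGCGG, compared with 32.7%. CCAAT was found in *Soat1*, in *Fasn* and before both starts of *Awat2*. TATAAA was in 0 of the 9 windows and in 12.4% of all windows, and AGGTCA, a core element of nuclear receptor sites, was in 0 of the 9 and in 14.0% of all. TCACNCCAC, a form of the sterol response element, was in 0 of the 9 and 1.05% of all. The perfect DR1 repeat of AGGTCA, a form of the element bound by PPAR and RXR, was in 0 of the 9 and 0.033% of all. Looser forms of these elements were not searched for, so their presence is not known.

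*Scd1* was the most abundant member in these scars. Per kilobase of merged exons, the median over the 12 libraries was 245 CPM for *Scd1*, the stearoyl-CoA desaturase that makes monounsaturated fatty acids. It was followed by *Mgst1*, a microsomal glutathione transferase, at 81.8 CPM per kilobase. Then came *Elovl3*, an elongase of very long chain fatty acids, at 42.9, *Cidea*, a lipid droplet protein, at 32.5, *Far2*, a reductase that makes fatty alcohols, at 32.1, and *Awat1*, a wax synthase, at 28.7 CPM per kilobase. *Fasn*, fatty acid synthase, had 22.4, *Soat1*, which esterifies cholesterol, 7.71, *Scd3*, a desaturase largely of skin, 7.63, and *Awat2*, the second wax synthase, 3.64 CPM per kilobase. In *Tem1*WT/WT sham scars, *Scd1* was at 344 ± 116 (SD, n = 3) and *Mgst1* at 82.2 ± 7.52 CPM per kilobase. *Elovl3*, *Far2*, *Cidea* and *Fasn* followed there, at 44.0 ± 7.42, 40.2 ± 11.6, 37.4 ± 10.9 and 35.8 ± 9.90 CPM per kilobase, and neighbours in this order differed by less than 1 SD of either gene. *Awat1* was at 30.0 ± 4.62, *Scd3* at 21.9 ± 14.8, *Soat1* at 7.25 ± 0.916 and *Awat2* at 4.31 ± 1.91 CPM per kilobase, so that *Scd3* stood above *Soat1* in this group although its median over all libraries was the lower.

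*Awat2* was the 1 member of 10 that passed the test for traction in *Tem1*WT/WT scars, where it was lower. *Awat2* (Entrez 245532) lies on chrX:100402221-100442717 in GRCm38, on the minus strand. Its level was 13.5, 5.47 and 8.48 CPM in the 3 sham scars and 1.24, 4.46 and 2.38 CPM in the 3 traction scars of *Tem1*WT/WT mice. The lowest sham scar was above the highest traction scar. *Awat2* fell by 1.76 on the log2 scale (SE 0.44), with an adjusted p of 0.0389 by edgeR's quasi-likelihood test with Benjamini-Hochberg adjustment over all genes tested. It was 1 member called lower, where 3.54% of all genes tested were. The call is close to its threshold: leaving out 1 library in turn ended it in 8 of 12 cases, namely without any 1 of the 3 *Tem1*WT/WT sham libraries, traction library 1 or 3 of *Tem1*WT/WT, sham library 3 or traction library 2 or 3 of *Tem1*lacZ/lacZ. The log2 fold change then lay between -2.31 and -1.38 and the adjusted p between 0.0125 and 0.141.

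*Awat1* (Entrez 245533), the other wax synthase, lies on the plus strand of the same chromosome, at chrX:100572251-100578205. It was at 47.2, 34.7 and 43.3 CPM in *Tem1*WT/WT sham scars and at 14.6, 32.4 and 12.9 CPM after traction. *Far2*, on chromosome 6, was at 387, 220.5 and 275 CPM in sham and at 30.2, 217 and 73.3 CPM after traction. *Cidea* was at 55.4, 32.2 and 37.5 CPM in sham and at 11.1, 31.2 and 12.1 CPM after traction. In each of these genes traction scars 1 and 3 lay far below every sham scar, while traction scar 2 lay just under the lowest sham scar. *Elovl3* was at 71.5, 100.7 and 88.5 CPM in sham and at 24.5, 80.9 and 31.6 CPM after traction, where scar 2 fell inside the sham range. Log2 fold changes were -1.06 for *Awat1* (SE 0.34, adjusted p = 0.0663 by edgeR), -1.46 for *Far2* (SE 0.56, adjusted p = 0.105), -1.20 for *Cidea* (SE 0.39, adjusted p = 0.0724) and -0.93 for *Elovl3* (SE 0.40, adjusted p = 0.139). None of these passed the threshold.

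The number of members called depended on the libraries and the tool. It was 0 by limma-voom, 0 with only the 6 libraries compared, 0 with the replicate number as a block and 0 in the 8 cases above. Without *Tem1*WT/WT traction scar 2, 5 members were called lower by edgeR, where 6.61% of all genes tested were: *Awat1* (-1.59, adjusted p = 0.00926), *Awat2* (-2.31, adjusted p = 0.0125), *Elovl3* (-1.62, adjusted p = 0.0116), *Far2* (-2.49, adjusted p = 0.0102) and *Cidea* (-1.83, adjusted p = 0.00935). With all libraries, DESeq2's Wald test called 6 members, where it called 21.5% of all genes tested. These were *Scd3*, *Awat1*, *Awat2*, *Far2* and *Cidea*, lower, and *Soat1*, higher, with adjusted p between 0.00163 and 0.0391. At an unadjusted p under 0.05 in edgeR, 6 members were lower and *Soat1* was higher, where 14.7% of all genes were lower and 16.7% higher. The 2 groups did not overlap in 6 members that were lower, compared with 18% of all genes, and in *Soat1*, compared with 17.7% of all genes in that direction.

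**Figure D1:**
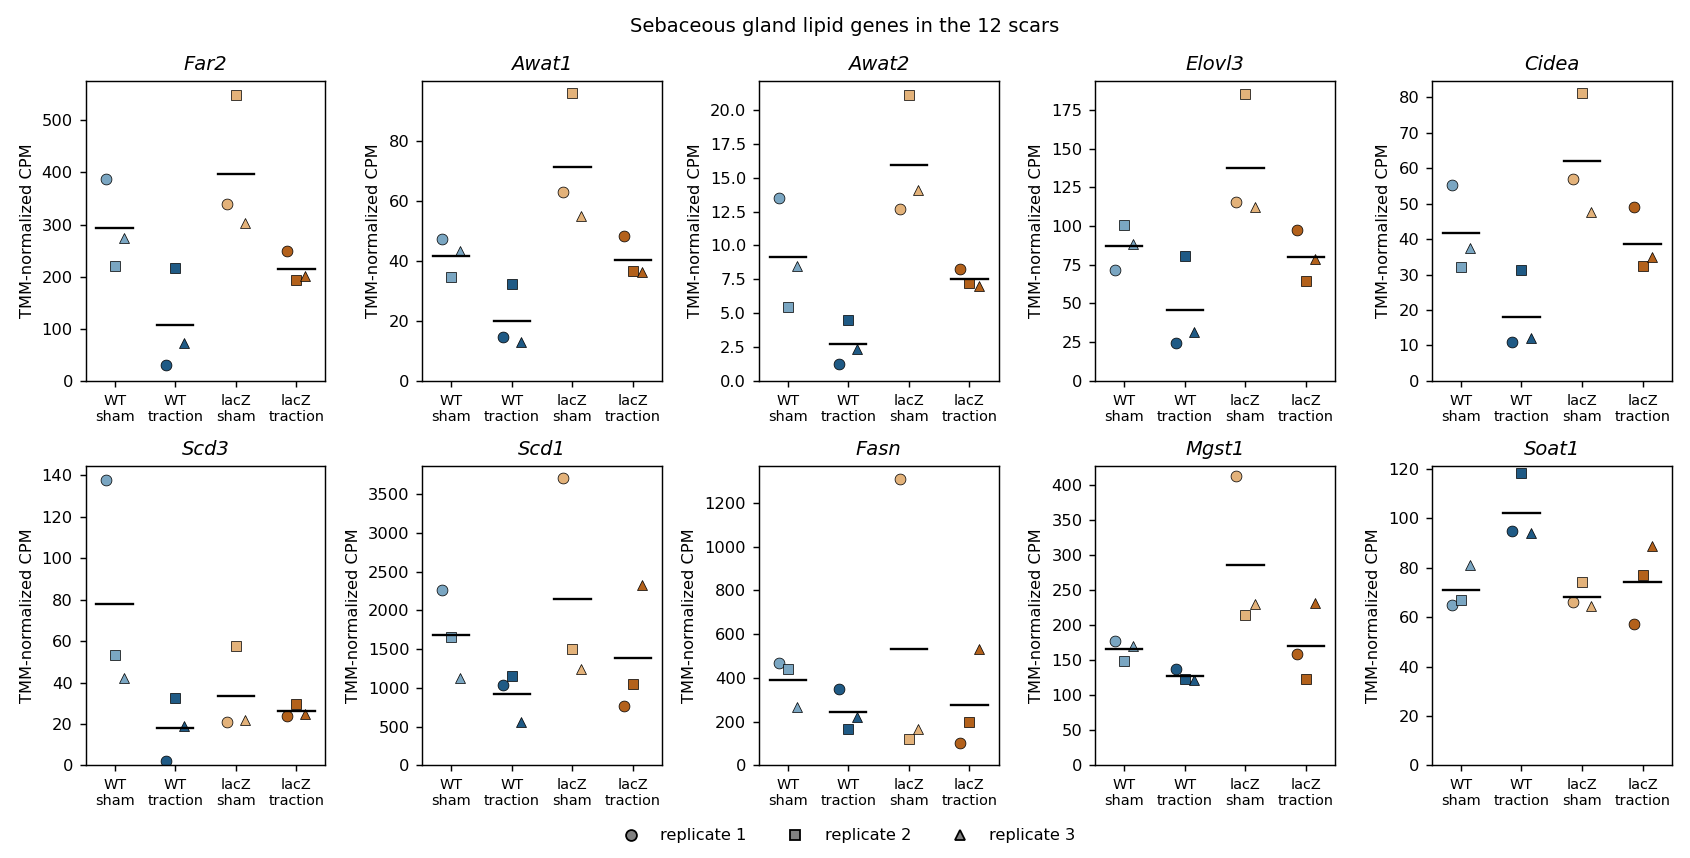
TMM-normalized CPM (y axis, from 0) of the 10 members in each of the 12 scars, by genotype (WT, Tem1WT/WT; lacZ, Tem1lacZ/lacZ) and treatment (x axis); each point is 1 mouse, the shape gives its replicate number and the line is the group mean. In the upper row WT traction scars 1 and 3 sit low and scar 2 near the sham scars, while Fasn, Scd1 and Mgst1 are led by lacZ sham scar 1.

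The desaturase *Scd3*, which like *Scd1* lies on chromosome 19, spanned the widest range of the members, 60.4-fold between the lowest and the highest scar. It was at 138, 53.3 and 42.0 CPM in *Tem1*WT/WT sham scars and at 2.28, 32.5 and 19.1 CPM after traction. Every traction scar was below every sham scar, and the log2 fold change was -2.11 (SE 0.78, adjusted p = 0.0945 by edgeR). The 95% interval of the log2 fold change ran from -3.82 to -0.40. *Scd3* was at 20.8, 57.8 and 22.1 CPM in *Tem1*lacZ/lacZ sham scars and at 24.0, 29.4 and 24.8 CPM after traction. Sham scars 1 and 3 of *Tem1*lacZ/lacZ were below all 3 of *Tem1*WT/WT sham, and the 2 sham groups overlapped through scar 2. Transcripts of *Scd1* and *Scd3* share 36 words of 150 bases, 1.06% of those of *Scd3*, so that reads from those stretches match both.

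*Fasn*, *Scd1* and *Mgst1* had a different pattern. *Fasn* was at 470, 439 and 268 CPM in *Tem1*WT/WT sham scars and at 348, 166 and 221 CPM after traction. In *Tem1*lacZ/lacZ mice it was at 1310, 120.3 and 165 CPM in sham scars and at 101, 199 and 531 CPM after traction. The groups overlapped in both genotypes, and *Fasn* was by far highest in *Tem1*lacZ/lacZ sham scar 1. Its log2 fold change with traction was -0.68 in *Tem1*WT/WT (95% interval -2.52 to 1.16) and -0.94 in *Tem1*lacZ/lacZ mice (-2.79 to 0.91), and without sham scar 1 the latter was 1.01.

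*Scd1* was at 2260, 1662 and 1128 CPM in *Tem1*WT/WT sham scars and at 1040, 1156 and 554 CPM after traction. It was at 3712, 1508 and 1240 CPM in *Tem1*lacZ/lacZ sham scars and at 769, 1050 and 2332 CPM after traction. As for *Fasn*, *Tem1*lacZ/lacZ sham scar 1 and traction scar 3 were the highest of their groups. *Mgst1* was at 177, 148 and 171 CPM in *Tem1*WT/WT sham scars and at 137, 123 and 122 CPM after traction, with no overlap. It was at 413, 214 and 229.5 CPM in *Tem1*lacZ/lacZ sham scars and at 159, 123 and 231 CPM after traction, with traction scar 3 inside the sham range. Neither gene passed the test in either genotype. The log2 fold changes in *Tem1*WT/WT were -0.88 for *Scd1* (SE 0.52, adjusted p = 0.270 by edgeR) and -0.38 for *Mgst1* (SE 0.27, adjusted p = 0.370).

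*Soat1* was the member that was higher with traction. It was at 64.9, 66.8 and 81.3 CPM in *Tem1*WT/WT sham scars and at 94.8, 118 and 94.0 CPM after traction. The 2 groups did not overlap. The log2 fold change was 0.53 (SE 0.18, 95% interval 0.14 to 0.92), with an adjusted p of 0.0743 by edgeR. In *Tem1*lacZ/lacZ mice *Soat1* was at 66.1, 74.2 and 64.4 CPM in sham and at 57.4, 76.9 and 88.7 CPM after traction, with a log2 fold change of 0.12 (-0.26 to 0.51). There the lowest and the highest value were both traction scars.

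Over the 10 members, the median log2 fold change with traction in *Tem1*WT/WT mice was -0.996, beside -0.0094 over all genes tested, and 9 of the 10 were lower. In *Tem1*lacZ/lacZ mice the median was -0.76, beside -0.015 over all genes, and again 9 of 10 were lower (7 to 10 under the alternatives, with 7 without sham scar 1). There 0 members were called by edgeR, with adjusted p between 0.598 and 0.905, as were 0% of all genes. At an unadjusted p under 0.05, 3 members were lower (*Mgst1*, *Awat1* and *Awat2*), where 2.46% of all genes were, and DESeq2 called 0 members and 0.122% of all genes. The groups did not overlap in 4 members that were lower, *Awat1*, *Awat2*, *Elovl3* and *Far2*, compared with 6.16% of all genes.

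The *Tem1*lacZ/lacZ traction scars lay closer together than those of *Tem1*WT/WT for *Awat2* and *Awat1*. Their coefficient of variation was 8.72% against 60.7% for *Awat2* and 17.2% against 54.2% for *Awat1*, a difference that was not tested. *Awat2* was at 12.7, 21.1 and 14.1 CPM in sham and at 8.23, 7.25 and 7.0 CPM after traction, a log2 fold change of -1.09 (SE 0.43, 95% interval -2.04 to -0.14). *Awat1* was at 62.8, 95.7 and 54.8 CPM in sham and at 48.4, 36.6 and 36.1 CPM after traction, a log2 fold change of -0.82 (SE 0.33, -1.55 to -0.081). All 3 traction scars were below all 3 sham scars in both genes. *Far2* was at 339, 549 and 304 CPM in sham and at 249.6, 194 and 201 CPM after traction, and *Elovl3* at 115.2, 185.6 and 112.0 CPM in sham and at 97.3, 64.3 and 79.0 CPM after traction. *Cidea*, at 57, 81.1 and 47.6 CPM in sham and at 48.9, 32.4 and 34.9 CPM after traction, overlapped by 1 traction scar. Sham scar 2 was the highest of the 12 for all 5 of these genes.

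Averaged over both genotypes, *Awat2* and *Awat1* fell with traction. The log2 fold changes were -1.43 for *Awat2* (SE 0.31, adjusted p = 0.0276 by edgeR) and -0.94 for *Awat1* (SE 0.24, adjusted p = 0.0384). These were 2 members called lower, where 3.23% of all genes were. *Cidea* had -0.94 (SE 0.28, adjusted p = 0.0549), and the adjusted p of the other 7 members lay between 0.0731 and 0.371. Leaving out 1 library in turn, *Awat2* remained called in 7 of 12 cases (adjusted p 0.0101 to 0.0766) and *Awat1* in 2 of 12 (0.00758 to 0.0974). The call of *Awat1* held without *Tem1*WT/WT traction library 2 or *Tem1*lacZ/lacZ traction library 1. That of *Awat2* was lost without *Tem1*WT/WT sham library 1, *Tem1*lacZ/lacZ sham library 2 or 3, or *Tem1*lacZ/lacZ traction library 2 or 3.

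**Figure D2:**
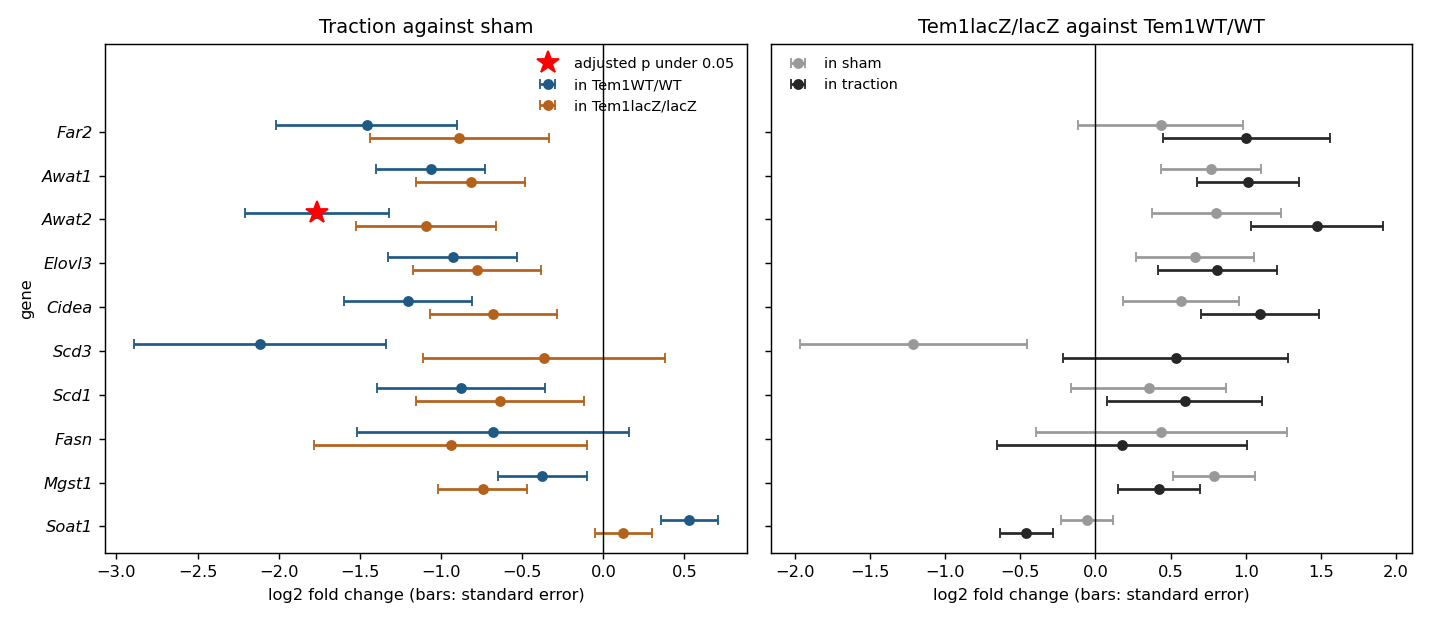
Log2 fold changes of the 10 members with standard errors (x axis) for traction against sham in each genotype (left) and for Tem1lacZ/lacZ against Tem1WT/WT in each treatment (right); a star marks an adjusted p under 0.05 by edgeR. Awat2 in Tem1WT/WT mice carries the 1 star, and 9 of 10 genes lie left of 0 for traction in both genotypes.

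Sebaceous lipid genes were also compared between genotypes, using the same groups from the other side. In sham scars 8 of the 10 members were higher in *Tem1*lacZ/lacZ mice (6 to 9 of 10 under the alternatives, with 7 by limma-voom, 6 without *Tem1*lacZ/lacZ sham scar 1 and 9 under upper quartile normalization, where *Soat1* changed sign), and their median difference on the log2 scale was 0.50, beside -0.015 over all genes. By edgeR 0 members were called, where 0.0106% of all genes were, and DESeq2 called 0, where it called 0.143% of all genes. *Mgst1* (0.79, SE 0.27, adjusted p = 0.409) and *Awat1* (0.77, SE 0.33, adjusted p = 0.423) had an unadjusted p under 0.05 in the higher direction, as did 5.03% of all genes. The sham groups did not overlap in 3 members that were higher, *Mgst1*, *Awat1* and *Elovl3*, compared with 13% of all genes.

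In traction scars 9 of the 10 members were higher in *Tem1*lacZ/lacZ than in *Tem1*WT/WT mice (7 without *Tem1*lacZ/lacZ traction scar 3), and their median difference on the log2 scale was 0.70, beside 0.014 over all genes. By edgeR 0 members were called, where 0.106% of all genes were. *Awat2* (1.47, SE 0.44, adjusted p = 0.0983), *Cidea* (1.10, SE 0.39, adjusted p = 0.127) and *Awat1* (1.02, SE 0.34, adjusted p = 0.113) had an unadjusted p under 0.05, where 11.1% of all genes were higher at that p. *Soat1* was lower at that p (-0.46, SE 0.18, adjusted p = 0.139), as were 15.1% of all genes. The 2 traction groups did not overlap in the same 3 higher members, compared with 12.9% of all genes, and in *Soat1*, compared with 13.7% in the lower direction. DESeq2 called *Awat2* (adjusted p = 0.0174) and *Awat1* (adjusted p = 0.0443) higher, as it did 4.6% of all genes. Without *Tem1*WT/WT traction library 2, edgeR called 5 members higher, *Awat1*, *Awat2*, *Elovl3*, *Far2* and *Cidea*, where 3.52% of all genes were.

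The difference between genotypes in the response to traction was tested directly by the interaction. The log2 interaction had a median of 0.24 over the 10 members, beside -0.0024 over all genes, with 7 members above 0. By edgeR 0 members were called, as were 0% of all genes. At an unadjusted p under 0.05 there were 0 members, where 8.91% of all genes were, and DESeq2 called 0 members and 0.366% of all genes. The interval was wide for each gene. It ran from -0.67 to 2.00 for *Awat2*, from -0.79 to 1.28 for *Awat1*, from -1.14 to 2.28 for *Far2*, from -0.59 to 4.09 for *Scd3* and from -2.86 to 2.33 for *Fasn*. The 3 comparisons above share libraries, so the lower level after traction in *Tem1*WT/WT mice and the higher level of *Tem1*lacZ/lacZ traction scars rest on the same 3 *Tem1*WT/WT traction scars.

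The 10 members fell into blocks when their levels were followed from scar to scar, a grouping made after the values were seen. Correlations of log2 CPM over the 12 libraries, which share their group differences, were between 0.89 and 0.98 for the 10 pairs of *Awat1*, *Awat2*, *Cidea*, *Elovl3* and *Far2*. After each group's mean was taken off they were still between 0.63 and 0.96. This block of 5 is called the wax ester genes for short, although *Cidea* is a lipid droplet protein and *Elovl3* an elongase. *Scd3* correlated with these 5 genes at 0.59 to 0.82 by Pearson's measure and at 0.29 to 0.56 by Spearman's rank measure. *Scd3* was at 2.28 CPM in *Tem1*WT/WT traction scar 1 and at 19.1 CPM or more in every other scar. *Scd1*, *Fasn* and *Mgst1* correlated with each other at 0.55 to 0.78, and at 0.75 to 0.83 within groups. *Fasn* correlated with the wax ester genes at -0.11 to -0.035, and *Soat1* at -0.62 to -0.50, which turned to 0.18 to 0.35 within groups. *Scd1* correlated with the wax ester genes at 0.47 to 0.55 and *Mgst1* at 0.50 to 0.63. Within groups these were -0.025 to 0.16 and -0.18 to -0.050. By Spearman's measure *Mgst1* correlated at 0.78 with *Scd1*, 0.32 with *Fasn* and 0.75 with *Cidea*.

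Ratios of counts were also compared within each library. The counts of *Awat1* per count of *Cidea* stayed between 0.853 and 1.32 in all 12 scars, a 1.55-fold span, while both genes varied more than 7-fold in CPM (7.43-fold for *Awat1* and 7.33-fold for *Cidea*). The ratio to *Cidea* spanned 2.42-fold for *Elovl3*, 2.64-fold for *Awat2* and 2.68-fold for *Far2*. It spanned 4.69-fold for *Mgst1*, 5.99-fold for *Scd1*, 9.37-fold for *Soat1*, 12.1-fold for *Scd3* and 21.2-fold for *Fasn*. The genes that varied least against *Cidea* are those of elongation, alcohol formation and wax ester synthesis. *Far2* has 605 of 7113 words of 150 bases (8.51%) in common with *Ergic2*, a neighbour on the opposite strand, and whether counting used strand is not stated.

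**Figure D3:**
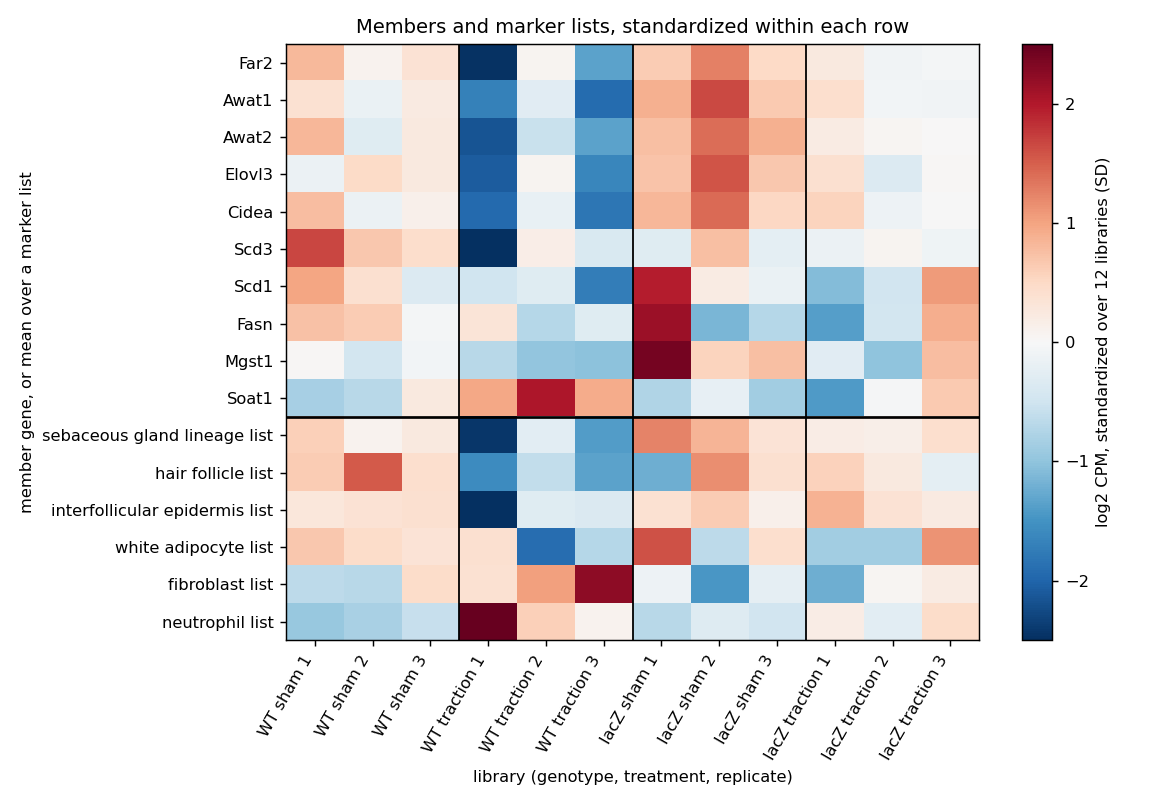
Log2 CPM standardized within each row over the 12 libraries (colour, in SD) for the 10 members (upper rows) and for the mean log2 CPM of 6 marker lists (lower rows), with libraries on the x axis by group. WT traction scars 1 and 3 are blue from Far2 to Cidea and in the sebaceous gland lineage list, and Scd1, Fasn and Mgst1 are reddest in lacZ sham scar 1, as is the white adipocyte list.

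White adipocyte markers varied widely between scars. The summed level of 12 white adipocyte markers was 11374 CPM in *Tem1*lacZ/lacZ sham scar 1 and 5313 CPM in *Tem1*lacZ/lacZ traction scar 3, and lay between 197 and 3631 CPM in the other 10 scars. Those 2 scars also led *Fasn*, at 1310 and 531 CPM, and *Scd1*, at 3712 and 2332 CPM. By group the summed level was 2191 to 3631 CPM in *Tem1*WT/WT sham, 197 to 1839 CPM in *Tem1*WT/WT traction, 651 to 11374 CPM in *Tem1*lacZ/lacZ sham and 421 to 5313 CPM in *Tem1*lacZ/lacZ traction scars. Most of this sum came from *Car3* and *Cfd*, with means of 1407 and 564 CPM in *Tem1*WT/WT sham scars, where the mean sum was 2685 CPM. All 12 markers were detected in each library. The defining markers were far from 0 in some scars and near it in others: *Adipoq*, the gene of adiponectin, ranged from 2.41 to 75.9 CPM in *Tem1*WT/WT traction and from 81.2 to 96.8 CPM in *Tem1*WT/WT sham scars. By edgeR 0 of the 12 were called in *Tem1*WT/WT traction, with a median log2 fold change of -1.47. *Plin1*, the perilipin of fat droplets, had -1.66 (SE 1.53, adjusted p = 0.489) and *Retn*, the gene of resistin, -0.89 (SE 1.46, adjusted p = 0.715).

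Over the 12 libraries the mean log2 CPM of the adipocyte list correlated with *Fasn* at 0.83, with *Scd1* at 0.73 and with *Mgst1* at 0.72, and within groups at 0.86, 0.62 and 0.80. These genes followed other lists as well. *Scd1* correlated at 0.73 with the 16 sebaceous lineage genes and at 0.95 with 30 further lipid synthesis genes, *Mgst1* at 0.65 and 0.80, and *Fasn* at 0.33 and 0.81, beside 0.84 with the brown adipocyte list. The correlation of the white adipocyte list was 0.16 with *Awat1*, 0.19 with *Awat2*, 0.15 with *Cidea*, 0.071 with *Elovl3* and 0.073 with *Far2* over all libraries, and between -0.65 and -0.56 for these within groups. The part of fat content in the values of *Fasn*, *Scd1* and *Mgst1* was not tested. *Ucp1*, the uncoupling protein that marks brown fat, had at most 28 counts in any library, while *Cidea*, which brown fat also uses, had at least 465. Of 9 brown adipocyte genes tested, *Ppargc1a*, a coactivator of mitochondrial genes, fell with traction in *Tem1*WT/WT mice (-2.10, SE 0.47, adjusted p = 0.0329 by edgeR). There 3.54% of all genes were called lower, and the median of the 9 was 0.28.

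**Figure D4:**
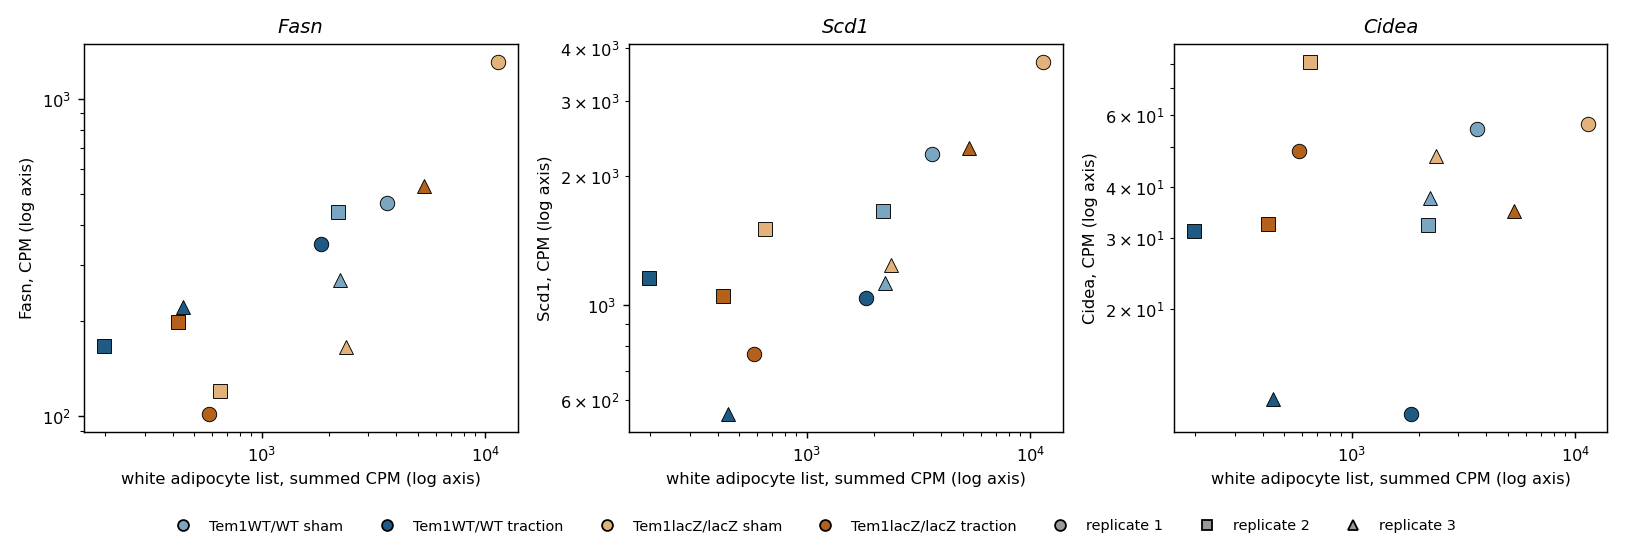
CPM of Fasn, Scd1 and Cidea (y axes, log scale) against the summed CPM of 12 white adipocyte markers (x axes, log scale) in the 12 scars; colour gives the group and shape the replicate. Fasn and Scd1 are highest where the summed level is highest, 11374 CPM in Tem1lacZ/lacZ sham scar 1, while Cidea has no such order. Car3 and Cfd make up most of the summed level.

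Over the 12 libraries the wax ester block followed sebaceous, epidermal and, less closely, hair follicle genes, and ran against fibroblast and neutrophil genes. The list of 16 sebaceous lineage genes, which holds no member, correlated at 0.84 with *Awat1*, 0.89 with *Awat2*, 0.88 with *Cidea*, 0.80 with *Elovl3* and 0.90 with *Far2*. The list of 12 interfollicular epidermis genes correlated with the same 5 at 0.76, 0.82, 0.81, 0.81 and 0.86. Within groups the range was 0.56 to 0.82 for the sebaceous list and 0.53 to 0.81 for the epidermal list. These are Pearson correlations. Spearman's rank correlation over the 12 libraries was 0.48 (*Elovl3*) to 0.76 (*Cidea*) for the sebaceous list and 0.64 (*Awat2*) to 0.80 (*Cidea*) for the epidermal list. The summed level of the sebaceous lineage genes was 2843 ± 325 CPM in *Tem1*WT/WT sham and 2504 ± 238 CPM in *Tem1*WT/WT traction scars (SD, n = 3), with overlap, and 3828 to 5267 and 2426 to 6764 CPM in the sham and traction scars of *Tem1*lacZ/lacZ mice. Of these 16 genes, 10 had a fitted log2 fold change below 0 and 6 above 0 in stretched against sham *Tem1*WT/WT scars. By edgeR 2 fell and 0 rose, where 3.54% of all genes were called lower and 5.61% higher. *Mc5r*, the melanocortin receptor of sebocytes, fell by 1.75 on the log2 scale (SE 0.44, adjusted p = 0.0385), from 18.3 ± 7.12 to 5.41 ± 2.73 CPM (SD, n = 3). *Krt79*, a keratin of the sebaceous duct and upper follicle, fell by 1.39 (SE 0.36, adjusted p = 0.0407), from 1453 ± 471 to 556 ± 281 CPM. *Pparg*, a nuclear receptor that drives both sebocytes and adipocytes, had -0.78 (SE 0.44, adjusted p = 0.252). *Fabp5*, a fatty acid binding protein of epidermis and sebocytes which with *Krt79* makes up most of the summed CPM, was at 935 ± 414 CPM in sham and 1581 ± 332 CPM in traction scars (0.76, SE 0.53, adjusted p = 0.349). The median of the list was -0.67 in *Tem1*WT/WT and -0.14 in *Tem1*lacZ/lacZ mice, where 0 were called.

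Hair follicle genes were lower in the same scars. Of 17 tested, 7 fell with traction in *Tem1*WT/WT mice by edgeR, where 3.54% of all genes were called lower. All 17 had traction scars below sham scars, compared with 18% of all genes, and their median log2 fold change was -1.86. Their summed level was 16623 to 30625 CPM in *Tem1*WT/WT sham and 4469 to 8115 CPM in *Tem1*WT/WT traction scars, and 4385 to 23601 and 8609 to 15342 CPM in the sham and traction scars of *Tem1*lacZ/lacZ mice. The median was -0.24 in *Tem1*lacZ/lacZ mice, with 0 called. *Krt34*, a hair keratin, fell by 2.67 (SE 0.61, adjusted p = 0.0329), *Krt72*, a keratin of the inner root sheath, by 2.61 (SE 0.68, adjusted p = 0.0416), and *Krt86*, a second hair keratin, by 2.36 (SE 0.56, adjusted p = 0.0349). *Krt25* and *Krt71*, of the inner root sheath, had -1.79 (SE 0.62, adjusted p = 0.0809) and -1.80 (SE 0.61, adjusted p = 0.0780). The 5 wax ester genes correlated with the follicle list at 0.59 to 0.65 over the 12 libraries and at 0.32 to 0.59 within groups. The summed follicle level was 4385 CPM in *Tem1*lacZ/lacZ sham scar 1 and 4474 and 4469 CPM in *Tem1*WT/WT traction scars 1 and 3. By mean log2 CPM of the list, those traction scars (5.52 and 5.74) were below that sham scar (5.83). *Awat1*, *Awat2*, *Cidea*, *Elovl3* and *Far2* were low in those traction scars and not low in that sham scar. That sham scar is 1 library of the other genotype and was picked after the values were seen. The part of follicle content in these values was not tested.

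Other cell types also differed between these groups. The median of the 12 interfollicular epidermis genes on the log2 scale was -0.78 with traction in *Tem1*WT/WT mice, with *Krt15*, a basal and follicle stem cell keratin, called lower (-2.64, SE 0.59, adjusted p = 0.0329) and *Krt14* at 1.00 (SE 0.68, adjusted p = 0.338). Of 12 fibroblast genes, *Pdgfra* (1.45, SE 0.33, adjusted p = 0.0329) and *Fbln1* (0.90, SE 0.20, adjusted p = 0.0326) rose, and *Col1a1* was at 1.68 (SE 0.50, adjusted p = 0.0553). The summed fibroblast level was 27688 to 43695 CPM in *Tem1*WT/WT sham and 45712 to 115483 CPM in *Tem1*WT/WT traction scars. Of 10 neutrophil genes tested 5 rose, *S100a9* among them (5.63, SE 1.33, adjusted p = 0.0349). For traction in *Tem1*WT/WT mice, 5.61% of all genes were called higher and 3.54% lower. The summed neutrophil level was 6875 CPM in *Tem1*WT/WT traction scar 1, 619 and 292 CPM in traction scars 2 and 3, and 62.7 to 97.9 CPM in sham scars. Traction scars 1 and 3 were both low in the wax ester genes, but each of these neutrophil levels is 1 library and the relation was not tested. Over the 12 libraries the neutrophil list correlated with the 5 wax ester genes at -0.80 to -0.59, and with *Scd3* at -0.85. Within groups these were -0.60 to -0.096 and -0.78. The fibroblast list correlated with the 5 wax ester genes at -0.68 to -0.53, and at -0.48 to -0.068 within groups. Skeletal muscle genes had a median of -2.83 with 0 of 10 called, and *Ckm* was at -3.10 (SE 0.91, adjusted p = 0.0553). The part of this change in tissue makeup in the members' values was not tested.

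Other genes of lipid synthesis went both ways. Of 30 further genes of fatty acid, triglyceride and sterol ester synthesis, 3 fell and 2 rose with traction in *Tem1*WT/WT mice by edgeR. Over all genes tested, 3.54% were called lower and 5.61% higher. Of the 30 genes, 11 were higher and 19 lower, and the median log2 fold change was -0.30. In *Tem1*lacZ/lacZ mice the median was -0.42, and 0 were called. *Scd4*, a desaturase, was at 1.05 to 2.19 CPM in *Tem1*WT/WT sham and at 0.0952 to 0.331 CPM in traction scars, and fell by 3.19 (SE 0.53, adjusted p = 0.0252). *Dgat2l6*, an acyltransferase of the family that holds *Awat1* and *Awat2*, was at 13.4 to 21.0 CPM in sham and at 2.63 to 7.33 CPM in traction scars, and fell by 1.62 (SE 0.36, adjusted p = 0.0329). *Insig1*, which restrains sterol regulatory element-binding proteins, was at 62.8 to 79.7 CPM in sham and at 40.4 to 51.8 CPM in traction scars, and fell by 0.63 (SE 0.15, adjusted p = 0.0348). The 3 genes that fell had sham and traction scars that did not overlap.

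*Mogat2* and *Soat2*, an acyltransferase for monoacylglycerol and the second sterol acyltransferase, rose from very low levels. *Mogat2* was at 0.0434 to 0.145 CPM in *Tem1*WT/WT sham (2 to 10 counts) and at 0.662 to 1.01 CPM in traction scars (30 to 49 counts), with a log2 fold change of 3.16 (SE 0.68, adjusted p = 0.0314 by edgeR). *Soat2* was at 0.160 to 0.716 CPM in sham and at 0.678 to 12.3 CPM in traction scars, which overlapped (3.84, SE 1.03, adjusted p = 0.0447). *Dgat2* had -0.27 (SE 0.48, adjusted p = 0.740) and the lipid droplet coat gene *Plin2* 0.20 (SE 0.25, adjusted p = 0.622).

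The genes whose pattern over the 12 libraries was most like that of the members were ranked by the correlation of log2 CPM with the members' mean standardized log2 CPM, over the 13636 genes whose mean log2 CPM was 1 or more. The first 10 were *Pxmp4* (r = 0.97), *Clstn3* (0.96), *Mill1* (0.96), *Zfp493* (0.95), *Atp6v1c2* (0.95), *Krt79* (0.94), *Echdc1* (0.94), *Acss2* (0.94), *Ccl20* (0.94) and *Ccl27a* (0.94). *Pxmp4* encodes a peroxisomal membrane protein and *Acss2* the enzyme that makes acetyl-CoA from acetate. *Krt79*, from the sebaceous lineage list, came sixth. *Pxmp4* was at 54.5 ± 12.4 CPM in *Tem1*WT/WT sham and at 29.9 ± 7.67 CPM in *Tem1*WT/WT traction scars, and at 63.2 ± 9.27 and 43.6 ± 2.32 CPM in the sham and traction scars of *Tem1*lacZ/lacZ mice (SD, n = 3).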

How the data were processed

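The 12 scar libraries, 1 per mouse, fall into 4 groups of 3 by the sample labels. The authors prepared stranded mRNA libraries, sequenced paired-end reads of 150 bases and, by the study's methods and the submitters' processing notes, trimmed them with fastp 0.20.0, aligned them to GRCm38 with HISAT2 2.1.0 and counted them with featureCounts 2.0.0. The authors deposited whole-number raw counts, not normalized, for each gene. The annotation used and the strand and multi-mapping settings are not given in the sources used here.

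Genes were filtered with filterByExpr, normalized by TMM and tested with edgeR's two-sided quasi-likelihood test (edgeR 4.0.16, R 4.3.3) with all 4 groups in the same fit (8 residual degrees of freedom). P-values were adjusted over all 18853 genes tested by the Benjamini-Hochberg method, and genes under 0.05 were called. Intervals are 95% intervals from the fitted standard error. Alternatives used DESeq2 (1.42.0), limma-voom (limma 3.58.1), other normalizations and filters, the replicate number as a block, the 6 libraries compared, and each library left out. The tests were first tested on simulated data. CPM per kilobase used the merged exons of GENCODE vM21. Promoter windows came from RefSeq. Log2 CPM used a prior count of 2. Figures were drawn with matplotlib 3.10.9.

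The members and gene lists were chosen with earlier results of these data known. Named genes are the 10 members, *Cd248*, the 10 genes most like the members, and from each other list its defining genes and up to 4 called genes by size of change. *Gpat3* was read as *Agpat9*, and of the hair follicle list 17 of 18 genes were used.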

Additional observations from a re-analysis of the deposited data

How the results depend on the processing

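Of 1180 values of the 60 member comparisons under 20 alternatives, 1099 kept their direction and their side of the threshold, 26 lost a call, 29 gained one and 26 changed sign. The cause was not tested. For traction in *Tem1*WT/WT mice, 1 member was called, compared with 6 by DESeq2's Wald test, 0 by limma-voom, 0 with only the 6 libraries compared, and 0 to 5 when 1 library was left out. For traction averaged over genotypes, 2 members were called, compared with 5 by DESeq2, 6 by limma-voom (5 lower, and *Soat1* higher) and 0 to 5 with 1 library left out. Of the 18853 genes tested in that comparison, the reported fit called 1835, DESeq2 3850 and limma-voom 3881. For *Tem1*lacZ/lacZ against *Tem1*WT/WT in traction, 0 were called, compared with 2 by DESeq2 and 0 to 5 with 1 library left out. The median log2 fold change of the members with 1 library left out lay between -1.60 and -0.77 for traction in *Tem1*WT/WT, between 0.57 and 1.39 for genotype in traction and between 0.022 and 0.80 for the interaction. In each of these the extreme farthest from 0 came without *Tem1*WT/WT traction library 2. Over all genes, the alternatives called 0 to 4047 genes for traction in *Tem1*WT/WT (1725 in the reported fit), 0 to 435 in *Tem1*lacZ/lacZ (0), 0 to 27 for genotype in sham (2), 0 to 2309 for genotype in traction (20), 0 to 69 for the interaction (0) and 0 to 3881 for the average (1835). Upper quartile normalization moved the median of all genes to -0.12 for stretched against sham *Tem1*WT/WT scars and to 0.14 for genotype in traction, and gave 734 higher and 939 lower calls where TMM gave 1057 and 668. Library numbers were not taken to pair the samples, since nothing states that same-numbered libraries, which are different mice, share a litter or day. Deviations from the group means correlated at -0.47 to 0.37 between them, with 9 of 18 pairs over 0.1 (median 0.11), compared with 4 of 36 pairs of unlike number (median -0.024). With the replicate block, 0 members were called for traction in *Tem1*WT/WT scars, and the sign changed for *Fasn* in the interaction (0.45) and for genotype in sham (-0.049).

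Other changes of sign concerned values that were not called. *Fasn* turned under limma-voom to 1.29 in the interaction, -0.63 for genotype in sham and 0.42 for traction in *Tem1*lacZ/lacZ. With 1 library left out, *Fasn* ranged from -1.15 to 1.69 in the interaction, from -1.48 to 0.91 for genotype in sham, from -0.71 to 0.61 for genotype in traction, from -1.82 to 1.01 for traction in *Tem1*lacZ/lacZ and from -1.25 to 0.16 for the average. *Scd1* ranged from -0.38 to 0.94 in the interaction, from -0.32 to 0.62 for genotype in sham, from -0.011 to 0.92 for genotype in traction and from -1.24 to 0.056 for traction in *Tem1*lacZ/lacZ. The interaction ranged from -0.11 to 0.84 for *Elovl3* and from -0.66 to 0.045 for *Mgst1*. Traction in *Tem1*lacZ/lacZ ranged from -0.58 to 0.31 for *Scd3* and from -0.031 to 0.33 for *Soat1*, and genotype in sham from -0.13 to 0.063 for *Soat1*, where upper quartile normalization gave 0.0012. The members had at least 52 counts in each library.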
